A study of Mus musculus with 62 samples.

Results

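Genes of blood vessels and of the meninges were followed in the brains of mice given ethanol or saline. They were 34 of the 56415 genes in the count table, found by exact gene name, and each name matched 1 gene: 10 are markers of endothelial cells, 8 of mural cells and 16 of meningeal and perivascular fibroblasts. The genes were chosen by their known cell type and with earlier results of these counts known, among them the response of the cortex to acute exposure, where Aebp1 and Six2 were lower. Values and calls of that contrast are therefore given as a description only and support nothing, and the tests that count are those of the other 9 contrasts. The animals were male C57BL/6J mice aged 8 to 10 weeks, with no transgene or other treatment. Each received an injection into the peritoneum of 2 g/kg ethanol, as a 20% solution in saline, or of saline alone. Acute exposure was 1 injection and chronic exposure 10 daily injections, and tissue was taken 4 h after the last. Frozen punches of the cortex (CTX), dorsal and ventral hippocampus (dHPC, vHPC) and dorsal and ventral striatum (DS, VS) of 16 mice gave 62 libraries in 20 groups of 3 or 4, so libraries of several regions came from the same mouse.

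Endothelial cells line the vessel and form the blood-brain barrier through tight junctions, such as those built with claudin 5 (Cldn5), and through transporters such as Slco1a4 and the efflux pump Abcb1a. Tek encodes Tie2, the receptor for angiopoietins, while Flt1 and Kdr encode receptors for vascular endothelial growth factor. Mural cells wrap the endothelium: pericytes carry Pdgfrb, Rgs5, Kcnj8, Abcc9 and Vtn, and smooth muscle cells of arteries carry the contractile genes Acta2, Tagln and Myh11. Fibroblasts lie in the meninges and along larger vessels and make fibrillar collagens (Col1a1, Col1a2, Col3a1), type VI collagen (Col6a1, Col6a2), small proteoglycans (Dcn, Lum, Ogn, Bgn), the growth factor Igf2, the transporters Slc6a13 and Slc22a6, and the transcription factors Foxc1, Foxd1 and Six2. In bulk tissue, fewer cells of a type and less RNA per cell cannot be told apart.

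Promoters are shown for 3 collagen genes because their transcripts moved together or apart in the comparisons described here: Col1a2 followed the other fibroblast genes across libraries, whereas Col6a1 and Col6a2 followed each other and not the class. RefSeq on build GRCm38.p6 held a promoter for 26 of the 34 members, from 250 bases before to 50 after the start. Capitals mark each match, on either strand, to the letters CCAAT or AGGAAG, motifs named for CCAAT-binding and ETS factors. The windows lie at chr6:4505368-4505667 on the plus strand, and at chr10:76725995-76726294 and chr10:76623355-76623654 on the minus strand.
Col1a2: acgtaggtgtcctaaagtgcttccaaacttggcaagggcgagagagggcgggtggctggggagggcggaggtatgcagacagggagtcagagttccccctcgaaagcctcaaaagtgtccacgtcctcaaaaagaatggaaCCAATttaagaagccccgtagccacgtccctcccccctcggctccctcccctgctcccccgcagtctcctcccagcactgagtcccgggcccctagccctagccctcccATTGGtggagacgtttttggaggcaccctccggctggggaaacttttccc
Col6a1: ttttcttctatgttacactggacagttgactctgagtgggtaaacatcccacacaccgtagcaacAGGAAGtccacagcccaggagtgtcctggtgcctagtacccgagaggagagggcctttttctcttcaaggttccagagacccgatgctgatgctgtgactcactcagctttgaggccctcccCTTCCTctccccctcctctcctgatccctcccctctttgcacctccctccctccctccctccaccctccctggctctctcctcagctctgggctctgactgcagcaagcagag
Col6a2: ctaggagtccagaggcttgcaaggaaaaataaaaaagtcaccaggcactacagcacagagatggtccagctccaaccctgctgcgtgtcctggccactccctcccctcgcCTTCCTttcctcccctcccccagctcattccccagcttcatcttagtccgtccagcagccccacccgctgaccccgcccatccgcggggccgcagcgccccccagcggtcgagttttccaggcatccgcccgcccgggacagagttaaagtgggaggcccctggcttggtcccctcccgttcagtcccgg
The Col1a2 window held 2 CCAAT matches and 0 of AGGAAG, that of Col6a1 0 and 2, and that of Col6a2 0 and 1. Among all 32851 promoters of the same length, 37.4% held CCAAT and 35.4% held AGGAAG. Among members, CCAAT was found in 5 of 13 fibroblast, 3 of 8 endothelial and 1 of 5 mural promoters, and AGGAAG in 7, 4 and 0. A match of letters is a description of the window only.

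Every member was detected, but at unequal depth. Libraries of the CTX and dHPC, made in the labels' batch 1, held 43173748 to 71164766 counts each. Those of the vHPC, DS and VS in batch 2, with another library kit and sequencer, held 9689502 to 46564992. DS chronic saline replicate 2 held 8149628 counts and none on 5 chromosomes, and was left out of all values below, so the DS chronic saline group has 2 libraries. Per kilobase of exon, the median endothelial member had a level of 3.59 CPM (counts scaled to a common library size) in saline CTX and 3.04 to 3.31 in the other regions. The median mural member stood at 2.25 to 3.27. The median fibroblast member was lower, at 1.44 in CTX, 1.35 in vHPC, 0.826 in dHPC, 0.630 in DS and 0.480 in VS. The fibroblast list was highest in CTX and lowest in VS, regions that also differ in batch, so that region and batch cannot be told apart there. Six2, the lowest member, had at most 3 counts in every library of 11 of the 20 groups and passed the low-count filter in 3 of the 10 contrasts. The other 33 members passed in all 10.

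After acute exposure, all 3 classes were lower in the ethanol CTX libraries, and fibroblast genes most. The class level, the geometric mean over its members relative to saline, was 103%, 101% and 96.3% for fibroblast genes in saline replicates 2, 4 and 6, and 70.7%, 71.9% and 71.4% in ethanol replicates 2, 4 and 5. Endothelial genes stood at 96.6%, 104% and 99.4% in saline and 85.8%, 80.8% and 79.8% in ethanol. Mural genes stood at 102%, 98.2% and 99.8%, then 83.6%, 85.8% and 76.8%. The groups did not overlap in any class. The log2 fold change was below 0 for 10 of 10 endothelial genes (median -0.21), 8 of 8 mural genes (-0.25) and 15 of 16 fibroblast genes (-0.58), beside a median of 0.002 over all 25905 genes tested. edgeR called 15 members, all lower, beside 1.99% of all genes called and 1.17% called lower, and DESeq2 called 18, beside 3.69%, of which 17 were lower and Col6a1 higher, with no adjusted value for Six2. Groups did not overlap for 23 of the 34, beside 17.7% of all genes. Since this contrast helped to choose the genes, nothing is read from these counts.

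**Figure D1:**
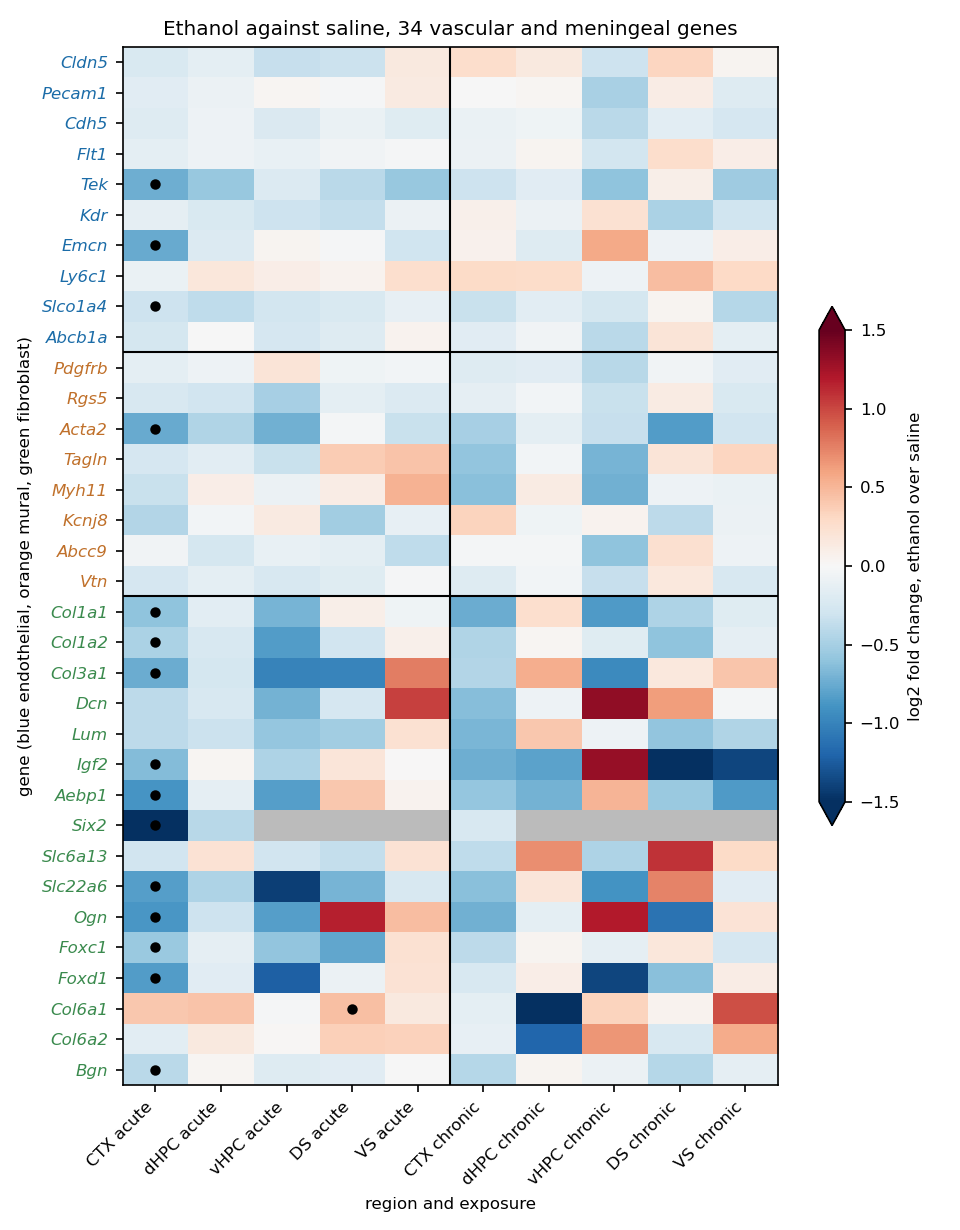
Log2 fold change of ethanol over saline for the 34 genes (rows, coloured by class) in the 10 region and exposure contrasts (columns), with a dot where edgeR gave an FDR below 0.1 and grey where Six2 was not tested. The 15 dots in the CTX acute column and the 1 for Col6a1 in DS acute are all the calls.

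Fibrillar collagens, Ogn, Bgn and Aebp1 were lower in the CTX, and the type VI collagen genes were not called by edgeR. Col1a1 stood at 9.28, 9.58 and 9.06 CPM in saline and 5.32, 7.17 and 5.93 in ethanol, a log2 fold change of -0.60. Col1a2 went from 18.5, 21.4 and 17.04 to 13.4, 15.2 and 12.5 CPM (-0.47). Col3a1 went from 3.45, 2.79 and 3.11 to 1.81, 2.16 and 1.64 CPM (-0.74). All 3 ethanol libraries lay below all 3 saline libraries for each of these fibrillar collagens. Ogn, which encodes osteoglycin, went from 6.05, 6.38 and 5.20 to 3.46, 2.57 and 3.54 CPM (-0.88). Bgn, the gene for biglycan, went from 11.04, 11.4 and 11.6 to 7.93, 8.85 and 8.81 CPM (-0.41). Aebp1, a secreted collagen-binding protein, went from 18.8, 20.3 and 17.003 to 11.6, 9.67 and 9.03 CPM (-0.89). These 3 genes were also separated without overlap. Dcn (-0.40) and Lum (-0.39) were lower on average but were not called.

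Regulators and transporters of the fibroblast list showed the same direction. Six2 stood at 1.36, 0.751 and 1.01 CPM in saline and 0.242, 0.285 and 0.354 in ethanol, the largest change of the list (-1.80), on 36.3 counts a library. Foxc1 went from 6.63, 7.22 and 6.82 to 4.67, 4.80 and 4.58 CPM (-0.56). Foxd1 went from 2.00, 2.15 and 2.69 to 1.53, 1.16 and 1.13 CPM (-0.84). These transcription factors act in the development of meningeal and other mesenchymal cells. Igf2 went from 43.6, 44.5 and 39.9 to 27.4, 29.3 and 24.9 CPM (-0.65). Igf2, Ogn and Acta2 have exons facing a gene on the other strand, and since the CTX libraries carry no strand their reads cannot be told apart from that gene's. Slc22a6, an organic anion transporter, went from 8.19, 8.24 and 5.61 to 4.71, 3.16 and 4.58 CPM (-0.82). Slc6a13, a GABA and taurine transporter, was lower by less (-0.29), and its groups overlapped. Col6a1 ran against the class. It stood at 16.0, 17.03 and 23.8 CPM in saline and 25.1, 21.7 and 28.4 in ethanol (0.41, not called by edgeR, with overlap), and Col6a2 changed by -0.16.

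Among vessel genes, Tek had the clearest separation in the CTX, at 12.4, 12.7 and 12.1 CPM in saline and 7.93, 6.41 and 8.07 in ethanol (-0.73). Emcn, which encodes endomucin, an endothelial surface glycoprotein, went from 3.64, 3.72 and 3.61 to 2.62, 2.18 and 1.74 CPM (-0.75). Slco1a4 went from 28.1, 31.9 and 31.7 to 22.8, 25.6 and 25.7 CPM (-0.31). The other 7 endothelial genes ranged from -0.26 for Abcb1a to -0.09 for Ly6c1, and Flt1, Kdr, Cdh5, Cldn5 and Ly6c1 overlapped between groups. Of the mural genes only Acta2, alpha smooth muscle actin, was called, at 7.42, 6.13 and 7.42 CPM in saline and 4.79, 4.68 and 3.04 in ethanol (-0.75). The pericyte genes Rgs5 (-0.24), Vtn (-0.25), Kcnj8 (-0.43) and Pdgfrb (-0.14) did not overlap between groups, nor did Myh11 (-0.33), whereas Abcc9 (-0.06) and Tagln (-0.25) did. With all 4 CTX groups in 1 edgeR fit, 0 members were called, beside 0 of 26540 genes. Leaving out ethanol replicate 4 left 4 calls (Aebp1, Col1a1, Igf2, Tek), beside 42 of all genes. Without saline replicate 2 or 4 or ethanol replicate 5 there were 9, 5 and 5, beside 307, 111 and 142 of all genes. With all 6 libraries 515 of all genes were called.

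Genes outside the 34 for the same cells gave these values in the CTX after acute exposure. Of 20 other fibroblast genes, 17 were lower (median -0.49), with 8 called lower, among them Fmod (-0.82) and Slc13a4 (-0.84), and 1, Col12a1, called higher (0.44). All 14 other mural genes were lower (median -0.28), with 0 called. The 18 other endothelial genes had a median of -0.08, with Tie1 (-0.58), a partner receptor of Tie2, and Podxl (-0.41) called lower and Mfsd2a (0.43), a lipid transporter of the barrier, called higher. Genes of border macrophages, which share the meninges with fibroblasts, were lower for 7 of 7 (median -0.64), and their summed level went from 9.57 to 12.2 CPM in saline to 5.48 to 8.29 CPM in ethanol. Haemoglobin and other erythrocyte genes overlapped, at 678 to 1148 CPM and 769 to 930 CPM. Choroid plexus genes also overlapped, at 12.0 to 133 CPM and 8.36 to 24.8 CPM. No gene of these lists was at 0 in every CTX library. The part of each cell type in the CTX result was not tested.

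**Figure D2:**
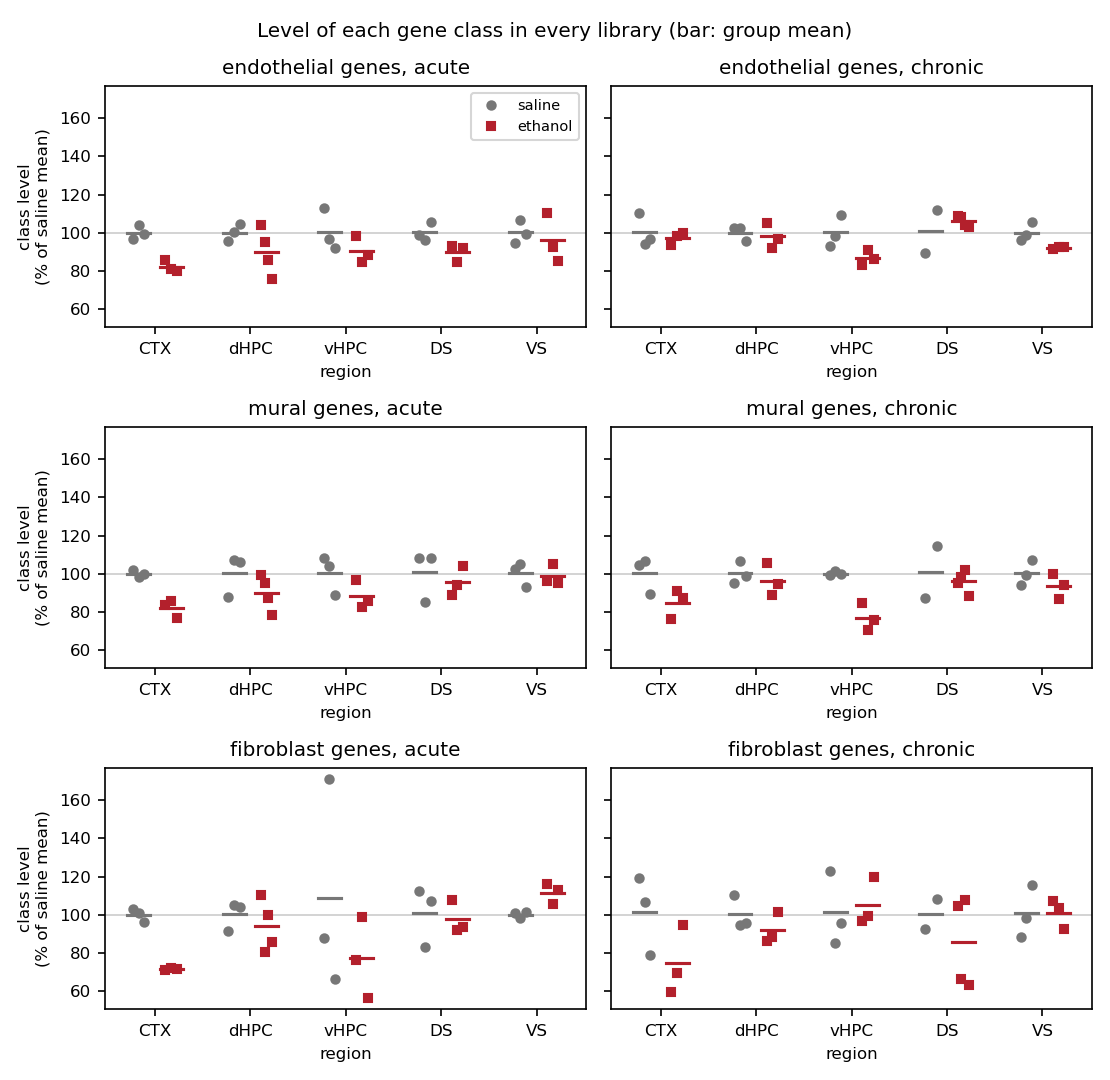
Level of the endothelial, mural and fibroblast genes in every library, as percent of the saline geometric mean of the same region and exposure (points: libraries, bars: group means), for acute and chronic exposure. In CTX acute the ethanol libraries lie below all saline libraries in each class, at 70.7% to 71.9% for fibroblast genes, and the vHPC saline libraries range from 66.5% to 171%.

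Outside the CTX, acute exposure gave 1 edgeR call among the members. In dHPC edgeR called 0 of 34 members, beside 0.042% of genes. An unadjusted p below 0.05 was reached by 5 members, beside 7.88% of genes, and all 5 were lower: Tek, Slco1a4 (-0.38), Rgs5 (-0.28), Acta2 (-0.45) and Slc22a6. DESeq2 called 1 (Tek), beside 1.07%. Slc22a6 stood at 1.83, 1.97 and 1.85 CPM in saline and 1.68, 1.40, 1.18 and 1.21 in ethanol (-0.47 ± 0.17 SE, edgeR FDR 0.55), without overlap. In the same dHPC libraries striatal neuron genes were below 0 for 10 of 10 (median -0.96, sums of 721 to 1078 CPM and 440 to 720 CPM) and erythrocyte genes for 5 of 5 (-0.72), and their part was not tested. Medians were -0.12 for endothelial, -0.15 for mural and -0.17 for fibroblast genes. In vHPC edgeR called 0 of 33, beside 0% of genes, with 4 members at an unadjusted p below 0.05 (Cldn5, Abcb1a, Rgs5 and Acta2, all lower), beside 11.9%, and 0 by DESeq2, beside 2.9%. In VS edgeR called 0 of 33, beside 0.0399%, with 2 members at an unadjusted p below 0.05, beside 7.32%, and 0 by DESeq2, beside 0.889%. In DS edgeR and DESeq2 each called only Col6a1, 1 of 33, beside 5.15% and 6.4% of genes.

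In vHPC after acute exposure, Cldn5 stood at 24.0, 24.7 and 26.5 CPM in saline and 16.3, 21.4 and 21.5 in ethanol (-0.34 ± 0.14 SE, edgeR FDR 0.38). Acta2 was at 7.69, 13.7 and 6.87, then 6.13, 6.66 and 4.35 CPM (-0.72 ± 0.30 SE, edgeR FDR 0.40). Both were lower in all ethanol libraries. The fibroblast value there rested on 1 library. Its 15 tested members had a median of -0.70 as log2 fold change, with 14 of 15 below 0. Saline replicate 4 stood at 171% of the group's geometric mean for fibroblast genes, and saline replicates 2 and 6 at 87.9% and 66.5%, beside 56.2% to 98.6% in ethanol. Without saline replicate 4 the median was -0.002. In VS, by contrast, 12 of 15 fibroblast genes were above 0 (median 0.22), and the class stood at 98.1% to 101% in saline and 105% to 116% in ethanol, without overlap. The other fibroblast genes did not share this: 9 of 15 were below 0 (median -0.17), and their groups overlapped, at 97.5% to 102% and 84.4% to 108%. In the same VS libraries cortical excitatory neuron genes were below 0 for 8 of 9 (median -2.76, sums of 426 to 933 CPM and 160 to 268 CPM) and erythrocyte genes above 0 for 5 of 5 (median 0.67), and their part was not tested. Dcn, the gene for decorin, had the largest change there without overlap, at 2.73, 2.37 and 1.20 CPM in saline and 3.46, 3.96 and 5.22 in ethanol (1.03 ± 0.36 SE, edgeR FDR 0.54). Abcc9, the regulatory subunit of the pericyte potassium channel, was at 9.38, 8.02 and 7.53, then 6.68, 6.66 and 5.84 CPM (-0.38 ± 0.19 SE, edgeR FDR 0.72). In DS Foxc1 was at 3.78, 3.03 and 3.14, then 1.56, 1.80 and 2.26 CPM (-0.78 ± 0.30 SE, edgeR FDR 0.22). Endothelial genes as a class stood at 96.1% to 105% in saline DS and 84.6% to 92.9% in ethanol DS, without overlap. The 18 other endothelial genes had a median of 0.02, with 10 above 0, Slc2a1 called higher and overlapping groups, at 90.4% to 110% and 96.4% to 105%. Choroid plexus genes were above 0 for 12 of 12 in those DS libraries (median 1.74, 3 called). Groups did not overlap for 3 of 33 members in VS, beside 12.3% of all genes.

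After chronic exposure no member was called by edgeR in any region. In CTX, 0 of 34 were called, beside 0% of genes, with 7 at an unadjusted p below 0.05, beside 10.4%, and 0 by DESeq2, beside 0.608%. All 16 fibroblast genes had a log2 fold change below 0 there (median -0.44), but the class level overlapped, at 78.6% to 119% in saline and 59.3% to 94.6% in ethanol. Without ethanol replicate 6 that median was -0.83. Myh11, the smooth muscle myosin, did not overlap, at 8.27, 10.3 and 6.93 CPM in saline and 4.53, 5.76 and 6.07 in ethanol (-0.63 ± 0.18 SE, edgeR FDR 0.44). CTX mural genes were below 0 for 7 of 8 (median -0.20) and endothelial genes for 6 of 10 (-0.04).

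In dHPC after chronic exposure edgeR called 0 of 33, beside 0% of genes, with 5 at an unadjusted p below 0.05, beside 8.23%. DESeq2 called 2, beside 0.859%. Both were matrix genes. Col6a2 stood at 5.22, 7.29 and 4.20 CPM in saline and 2.39, 3.15 and 1.76 in ethanol (-1.19 ± 0.26 SE, edgeR FDR 0.57). Aebp1 went from 14.5, 15.8 and 12.0 to 7.11, 9.71 and 8.97 CPM (-0.71 ± 0.15 SE, edgeR FDR 0.57). Neither overlapped between groups. Ly6c1, an endothelial surface protein, was at 25.4, 24.5 and 21.7 CPM in saline and 28.8, 29.7 and 28.0 in ethanol (0.28 ± 0.08 SE, edgeR FDR 0.57), also without overlap. Col6a1 was at 16.4, 36.8 and 7.30 CPM in saline and 6.75, 9.39 and 4.60 in ethanol, with overlap. Striatal neuron genes, a list chosen after values were seen, moved with type VI collagen: their sum was 374 to 2941 CPM in saline and 360 to 470 CPM in ethanol. The part of striatal tissue in these values was not tested.

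In vHPC after chronic exposure 8 of 10 endothelial and 7 of 8 mural genes were below 0, with Emcn (0.57), Kdr (0.23) and Kcnj8 (0.06) above, and fibroblast genes went both ways. edgeR called 0 of 33, beside 0.0555% of genes, 12 had an unadjusted p below 0.05, beside 9.51%, and DESeq2 called 0, beside 1.08%. Of the 12, 4 were endothelial and 4 mural, all lower, and 3 of the 4 fibroblast genes were higher. Endothelial genes stood at 93.2%, 98.0% and 109% in saline and 83.2%, 90.7% and 86.2% in ethanol. Mural genes stood at 99.2%, 101% and 99.6%, then 84.4%, 70.6% and 75.7%. Neither class overlapped. The 18 other endothelial genes did not overlap either, at 98.0% to 102% and 85.4% to 94.7%, but the other mural genes did, at 89.1% to 111% and 91.8% to 107% (8 of 13 below 0, median -0.08). Pecam1, an adhesion molecule of endothelial junctions, went from 14.6, 12.5 and 16.3 to 9.62, 10.5 and 10.8 CPM (-0.49 ± 0.16 SE, edgeR FDR 0.41). Myh11 went from 9.10, 7.91 and 11.1 to 6.37, 5.17 and 5.47 CPM (-0.72 ± 0.20 SE, edgeR FDR 0.35). Both were lower in all 3 ethanol libraries.

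Fibroblast genes in the same vHPC libraries had a median of -0.08. Igf2 stood at 55.0, 26.6 and 32.5 CPM in saline and 63.0, 124 and 95.3 in ethanol (1.31 ± 0.28 SE, edgeR FDR 0.22), which was not called. Ogn was at 1.78, 2.53 and 2.56 CPM, then 4.25, 7.12 and 4.35 (1.19 ± 0.31 SE, edgeR FDR 0.32), and Dcn changed by 1.33 with overlap. Col1a1 changed by -0.85. Choroid plexus genes, the secretory epithelium of the ventricles, were higher in these ethanol libraries: 12 of 12 (median 4.07), 6 of them called, with a sum of 29.4 to 217 CPM in saline and 940 to 3303 CPM in ethanol. Igf2 and Ogn moved with that list across libraries, as described for single genes. The part of choroid plexus in these values was not tested. Without ethanol replicate 4, edgeR called Igf2, beside 360 of 19202 genes, against 11 of 19814 with all libraries.

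The striatum after chronic exposure gave no edgeR call either. In DS 0 of 33 were called, beside 0% of genes, with 4 at an unadjusted p below 0.05, beside 7.53%, and 0 by DESeq2, beside 0.776%. These DS values left out saline replicate 2. Ly6c1 stood at 19.5 and 22.7 CPM in saline and 27.6, 34.3, 25.5 and 29.7 in ethanol without overlap (0.47 ± 0.15 SE, edgeR FDR 0.52). Ogn was at 4.77 and 8.03 CPM in saline and 4.22, 1.77, 4.11 and 1.52 in ethanol (-1.11 ± 0.45 SE, edgeR FDR 0.63). Igf2 ranged from 73.1 to 265 CPM in saline and 16.0 to 110 CPM in ethanol, while choroid plexus genes summed to 1998 to 7493 CPM and 24.1 to 3205 CPM. In VS 0 of 33 were called, beside 0% of genes, with 6 at an unadjusted p below 0.05, beside 9.95%, and 2 by DESeq2 (Slco1a4 and Col6a1), beside 1.79%. Slco1a4 was at 48.9, 45.6 and 49.2 CPM in saline and 30.5, 37.2 and 39.14 in ethanol (-0.43 ± 0.11 SE, edgeR FDR 0.31). Rgs5, a pericyte regulator of G protein signalling, was at 78.3, 77.4 and 73.1, then 64.1, 63.3 and 68.2 CPM (-0.23 ± 0.08 SE, edgeR FDR 0.40). The groups did not overlap for either gene. The endothelial class stood at 96.3% to 105% in saline VS and 91.5% to 92.3% in ethanol VS. The 18 other endothelial genes there had a median of 0.03, and their groups overlapped.

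Tek was the member that most often separated the groups. In the 9 contrasts other than CTX acute its log2 fold change was below 0 in 8, with a median of -0.41 and a range of -0.61 to 0.09, and in 6 every ethanol library lay below every saline library. Tek is described for having the highest such count of the 34, so the count is no test of it. Of the 17996 genes tested in all 9 contrasts, 0.05% were lower without overlap in at least as many as Tek. In dHPC acute Tek was at 10.7, 11.7 and 11.7 CPM in saline and 9.27, 9.62, 5.85 and 5.90 in ethanol (-0.57 ± 0.17 SE, edgeR FDR 0.44). In DS acute it was at 10.9, 11.7 and 13.2, then 10.5, 8.96 and 8.00 CPM (-0.41 ± 0.16 SE, edgeR FDR 0.23). In VS acute it was at 12.7, 10.0 and 12.4, then 9.34, 8.46 and 5.97 CPM (-0.57 ± 0.20 SE, edgeR FDR 0.56). The ethanol libraries were the lower ones in each of these regions, but no edgeR FDR was below 0.1. DESeq2 called Tek in dHPC acute (DESeq2 FDR 0.095).

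Chronic exposure gave the same direction for Tek in 4 of 5 regions. CTX was at 13.9, 11.4 and 12.5 CPM in saline and 9.73, 10.5 and 9.87 in ethanol (-0.32 ± 0.11 SE, edgeR FDR 0.44). VS was at 12.8, 14.0 and 16.9, then 10.3, 10.7 and 9.28 CPM (-0.53 ± 0.16 SE, edgeR FDR 0.36). In dHPC it was 11.3, 10.4 and 11.6, then 9.77, 9.57 and 10.3 CPM (-0.17 ± 0.09 SE, edgeR FDR 0.67). In vHPC the groups overlapped, and DS alone had a value above 0 (0.09). Since the regions came from the same mice, the contrasts of 1 exposure are not independent. Cdh5, vascular endothelial cadherin, and Acta2 were below 0 in all 9 contrasts, as were 0.695% of all genes, but without overlap in only 1 and 2. Ly6c1 went the other way, above 0 in 8 of 9 with no overlap in 4. Per contrast, the groups did not overlap, in either direction, for 8.25% (dHPC acute) to 21.4% (DS acute) of all genes tested. In DS chronic, VS chronic and dHPC chronic Ly6c1 lay above 0 where Cdh5 lay below. Neither was called by edgeR in the 9 contrasts (lowest FDR 0.44 and 0.58), and the difference between these genes was not tested.

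**Figure D3:**
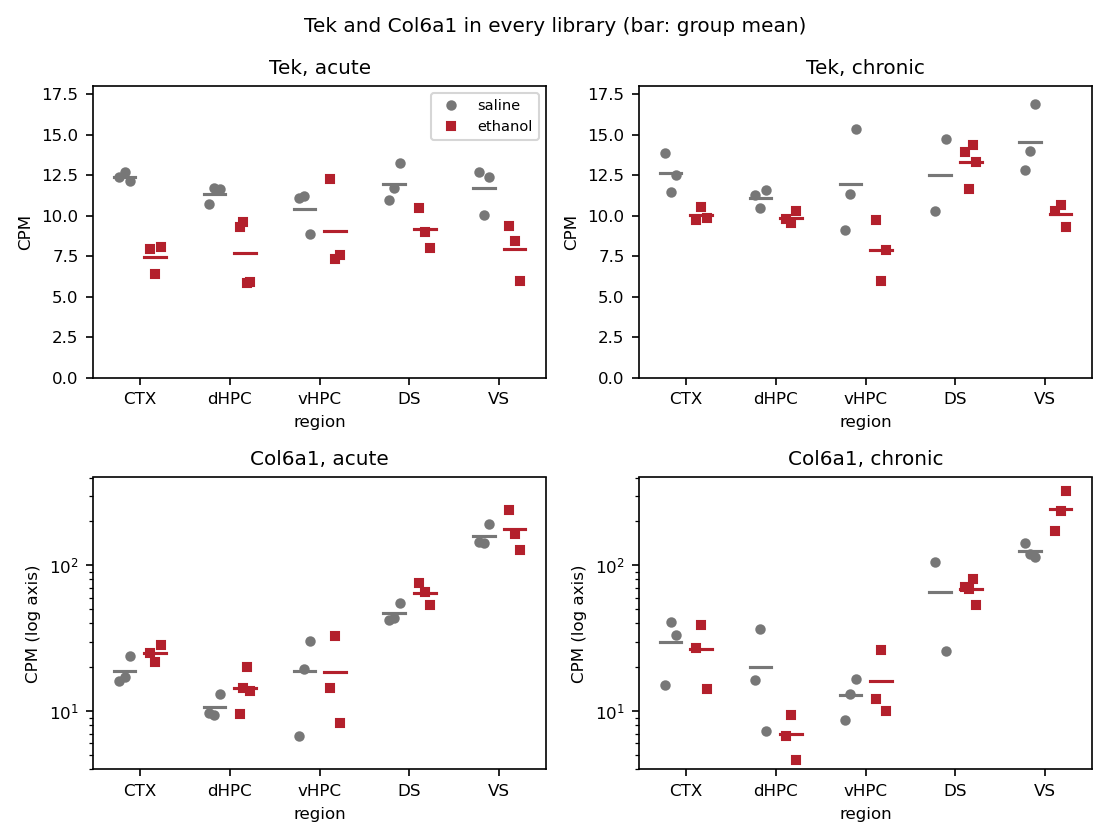
CPM of Tek (linear axis from 0) and Col6a1 (log axis) in every library by region and exposure, with bars at group means. Tek lies between 10.0 and 14.0 CPM in most saline libraries and lower in ethanol libraries of most regions, while Col6a1 rises from 15.8 CPM in saline vHPC to 142 in saline VS.

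Col6a1, a chain of type VI collagen, had a regional pattern that it shared with Col6a2 and with no other fibroblast gene, being highest in VS. In saline libraries it stood at 15.4 ± 10.9 CPM (SD, 6 libraries, or 5 in DS) in dHPC, 15.8 ± 8.49 in vHPC, 24.3 ± 10.6 in CTX, 54.3 ± 30.3 in DS and 142 ± 27.3 in VS, a span of 9.21-fold. The first 3 regions overlapped, and every saline VS library, from 114 to 191 CPM, lay above every saline DS library. By mean, Igf2 was higher than Col6a1 in saline CTX, dHPC and vHPC. In saline DS Igf2 had a mean of 81.0 ± 105 CPM (SD, 5 libraries), with a highest library of 265 CPM. That spread is larger than the mean, so Igf2 and Col6a1 are not ranked in DS. Col1a1 went the other way from Col6a1, at 10.2 CPM in vHPC and 2.74 in VS. DS acute gave the only edgeR call outside CTX acute: Col6a1 was at 42.1, 43.7 and 55.0 CPM in saline and 75.3, 66.1 and 53.7 in ethanol (0.46 ± 0.13 SE, edgeR FDR 0.073), with overlap. The call was lost without saline replicate 2 or 4 or ethanol replicate 3 or 4, and with all 4 DS groups in 1 fit. In the same DS libraries striatal neuron genes were called higher for 9 of 10. Of 9 cortical excitatory neuron genes, 8 were called lower and Lamp5 higher (0.46). Their sum went from 457 to 605 CPM in saline to 127 to 205 CPM in ethanol. The part of tissue make-up was not tested. In VS chronic it stood at 141, 119 and 114 CPM in saline and 173, 237 and 325 in ethanol (0.97 ± 0.20 SE, edgeR FDR 0.24, DESeq2 FDR 0.00048).

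edgeR's test of the difference between the chronic and the acute response called 0 of 33 or 34 members in each of the 5 regions, beside 0% of genes. At an unadjusted p below 0.05 there were 6 members in CTX, beside 8.19% of genes, 2 in dHPC, beside 4.48%, 6 in vHPC, beside 11.5%, 3 in DS, beside 4.16%, and 1 in VS, beside 4.62%. DESeq2 called 1 member, Col6a2 in dHPC, beside 0.00745% of genes, and 0 in CTX, vHPC, DS and VS, beside 0.0791%, 2.02%, 0.019% and 0.0191%. In vHPC the 6 were Pecam1, Pdgfrb and Myh11 with a value below 0 (a lower fold change in chronic exposure) and Dcn, Igf2 and Ogn with one above 0. The CTX test contains the acute contrast that helped to choose the genes, so nothing is read from it.

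Whether the 3 classes moved together was asked over 61 libraries, using each library's deviation from its group mean. Endothelial and mural scores, the mean deviation in log2 CPM over the list, had a Pearson r of 0.53 (Spearman rho 0.52). Mural and fibroblast scores had 0.34 (0.30), and endothelial and fibroblast scores 0.16 (0.21). Without the 2 libraries farthest from the median of the first-named score of each pair these were 0.55, 0.29 and 0.12. No library was removed for its fibroblast score. The libraries share mice, depth and normalization, so these values are a description. By region, endothelial with mural gave 0.84 in dHPC (13 libraries), 0.65 in DS, 0.46 in vHPC, 0.33 in CTX and 0.08 in VS (12 each). Endothelial with fibroblast ran from -0.18 in vHPC to 0.50 in CTX, and mural with fibroblast from 0.10 in VS to 0.68 in CTX. Single regions rested on few libraries. Without the 2 farthest, mural with fibroblast was 0.18 in CTX and -0.40 in VS, endothelial with mural 0.39 in DS, and endothelial with fibroblast -0.06 in dHPC, where it had been 0.34. Centring on region means in place of group means keeps the differences between groups in. The values were then 0.71 for endothelial with mural, 0.48 for mural with fibroblast and 0.36 for endothelial with fibroblast. These differences include that of CTX acute, which helped to choose the genes, so nothing is read from this setting. The order of the pairs differed when DS chronic saline replicate 2 was included, on the members of the 15 chromosomes complete in it. Mural with fibroblast was then highest (0.45), endothelial with mural 0.38 and endothelial with fibroblast 0.18 (62 libraries). That setting also dropped the members on other chromosomes, among them Kcnj8, Abcc9, Tagln, Col1a2 and Igf2. The part of the library and that of the dropped members cannot be told apart.

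**Figure D4:**
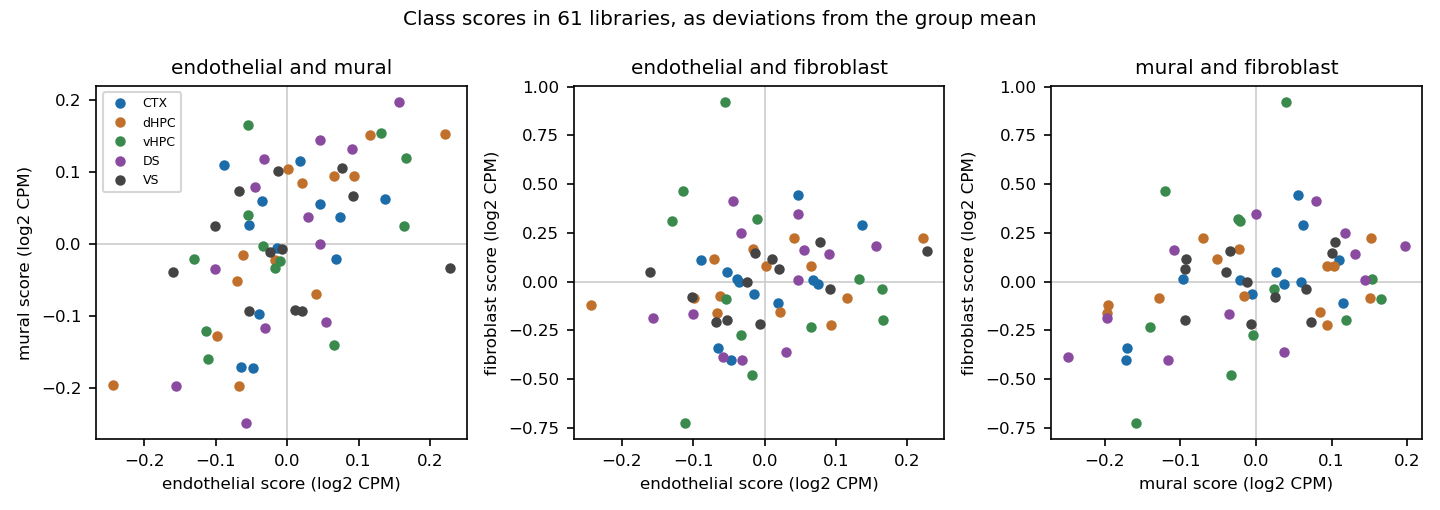
Scores of the endothelial, mural and fibroblast genes (mean log2 CPM deviation from the group mean) against each other in 61 libraries coloured by region. Endothelial and mural scores rise together (r 0.53), and the fibroblast score has the widest spread, from -0.72 to 0.92.

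The fibroblast score varied most between libraries of 1 group, with an SD of 0.27 against 0.09 for endothelial and 0.11 for mural scores. Its highest library was vHPC acute saline replicate 4 (0.92) and its lowest replicate 6 of the same group (-0.72). Single fibroblast genes had a median within-group SD of 0.62 log2 units, and the median ratio to genes at a like level was 1.46, against 1.12 for endothelial and 1.06 for mural genes. Igf2 had the largest ratio, 6.15, with an SD of 0.78 where genes at its level had 0.13, and Col6a1 had 4.59. The score followed that of the 20 other fibroblast genes (r 0.85), and the endothelial score that of the 18 other endothelial genes (0.66, but 0.17 in vHPC). The mural score had 0.52 with other mural genes and 0.57 with other endothelial genes. Over all regions the fibroblast score also followed border macrophage genes (0.54), erythrocyte genes (0.36) and choroid plexus genes (0.35), and not cortical excitatory neuron genes (-0.01). By region the values ran from -0.19 (dHPC) to 0.71 (DS) for border macrophage genes and 0.07 (vHPC) to 0.72 (dHPC) for erythrocyte genes. They ran from -0.19 (CTX) to 0.71 (DS) for choroid plexus genes and -0.31 (DS) to 0.41 (VS) for cortical excitatory neuron genes. Of 96 pairs of libraries from the same mouse (16 mice), 49 were on the same side of 0 for the endothelial score, 47 for the mural and 38 for the fibroblast score.

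Single genes did not all keep to their class. Pairs of fibroblast genes had a median r of 0.30 (96 of 120 above 0), pairs of endothelial genes 0.25 (40 of 45) and pairs of mural genes 0.11 (21 of 28), against 0.16 for endothelial with mural and 0.06 for endothelial with fibroblast genes. Col1a2 had the closest tie to the rest of its class (r 0.85), with Col1a1 (0.75), Bgn (0.64) and Col3a1 (0.63) next. Flt1 led the endothelial genes (0.69). Rgs5, a pericyte gene, went with the endothelial score (0.63) and Flt1 (0.76) more than with the other mural genes (0.23). Vtn, which pericytes secrete as vitronectin, went with the fibroblast score (0.65), Bgn (0.71) and Col1a2 (0.65) more than with the mural genes (0.31). The difference between such correlations was not tested.

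**Figure D5:**
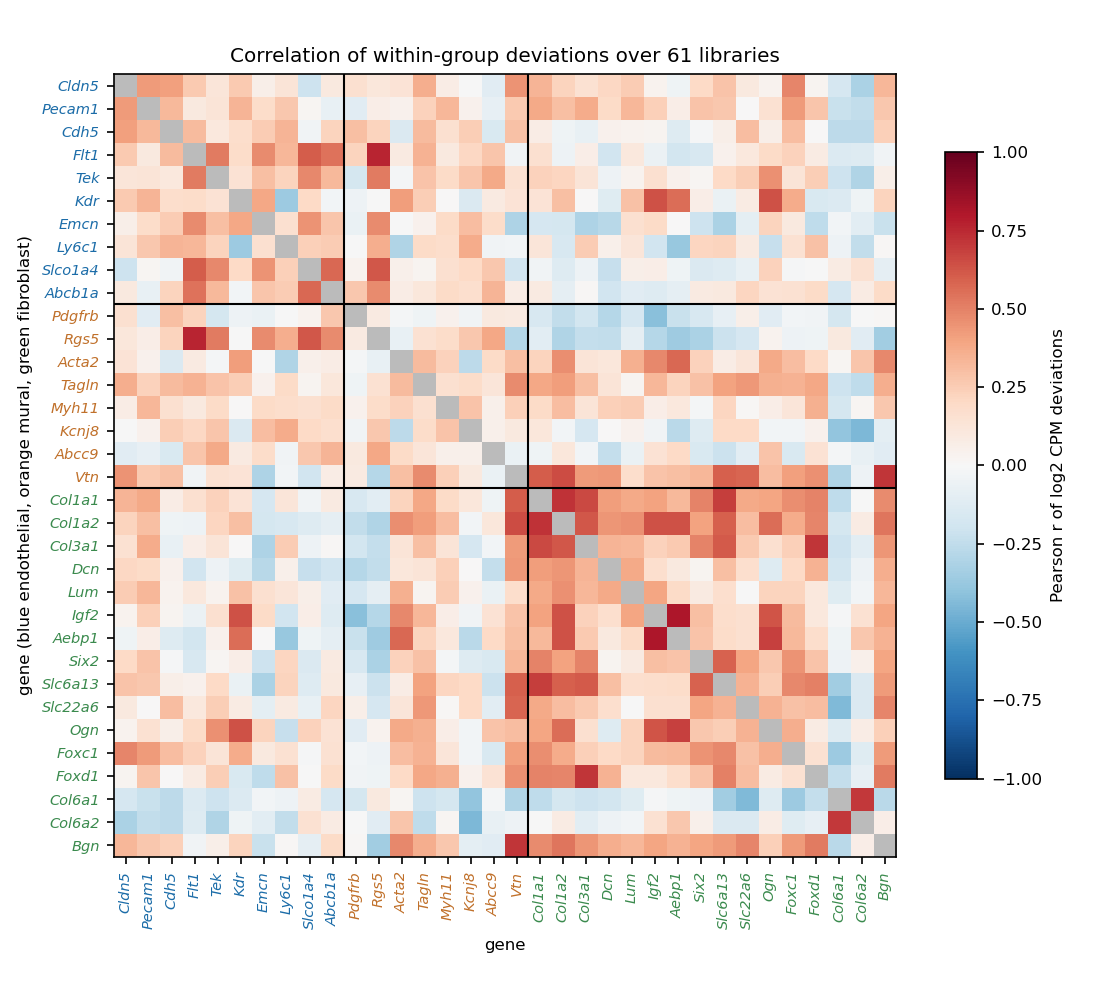
Pearson r between the 34 genes over 61 libraries, from deviations of log2 CPM from the group mean (rows and columns by class, diagonal grey). Pairs are above 0 in 96 of 120 cases within the fibroblast block and 40 of 45 within the endothelial block, Col6a1 and Col6a2 have an r of 0.71, and Rgs5 shares its strongest value with Flt1 (0.76).

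Some fibroblast members formed groups of their own. Igf2 and Aebp1 had an r of 0.81, Aebp1 and Ogn 0.68 and Igf2 and Ogn 0.63, and all 3 went with choroid plexus genes (0.81, 0.66 and 0.51). Kdr, an endothelial gene, went with that list too (0.50) and with Igf2 (0.64) and Ogn (0.64). Igf2 shares exon sequence on its own strand with Gm49394, and the pair had an r of 1.00, so their reads cannot be told apart. Next to Igf2 came Igfbp2 (0.94), Mfrp (0.90), Pcolce (0.90) and Enpp2 (0.89). Col6a1 with Col6a2 had 0.71, Col6a1 with the other fibroblast genes -0.24, and Col6a1 with the striatal neuron list 0.53. The genes most like Col6a1 were Sp9 (0.71), then Col6a2, Xkr7 (0.69), Syt6 (0.68) and Oprk1 (0.65). Without Col6a1 and Col6a2 the fibroblast score had an r of 0.21 with endothelial and 0.39 with mural scores, and without Igf2, Aebp1 and Ogn 0.11 and 0.31.

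Outside the 34, the genes whose deviations were most like the fibroblast score were Fmod (r 0.76), Gjb2 (0.73), Colec12 (0.73), Ptgds (0.73) and Tmem176b (0.71), among 18170 genes with a median r of -0.02 and a 95th percentile of 0.35. For the endothelial score they were Shank3 (0.61), Slco1c1 (0.61), Sh2b3 (0.59), Adgrf5 (0.59) and Hps5 (0.58), and for the mural score Smad6 (0.62), Mill2 (0.62), Stab1 (0.60), Ccbe1 (0.54) and Grb14 (0.53). Slco1c1 is a thyroid hormone transporter of the blood-brain barrier and Ptgds the prostaglandin D synthase of the leptomeninges and choroid plexus. All 5 values for the fibroblast score were above all 10 for the vessel scores.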

How the data were processed

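Counts of 62 poly(A) libraries were analysed. Per the labels and methods, the authors used cutadapt 5.0 for trimming and STAR 2.7.10a for alignment to GRCm39, and counted on exons with featureCounts 2.0.6. The stated options mark the reads as paired but do not ask for counts of pairs, so both reads of a pair can count. The deposited values are raw gene counts, with no normalization. All libraries were counted as reverse-stranded, although batch 1 (CTX, dHPC) used an unstranded kit, so in those regions the reads of the 6 members whose exons overlap a gene on the other strand (Abcb1a, Acta2, Tagln, Abcc9, Igf2, Ogn) cannot be told apart from their partners'. Igf2 and Col3a1 also overlap a gene on their own strand. Reads mapping to several places or features counted for each. A table of transcript counts was not used here.

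edgeR 4.0.16 (quasi-likelihood F test, TMM, R 4.3.3, limma 3.58.1) was fitted across all genes reaching 5 counts in 2 or more libraries of a compared group, on the 2 groups of each comparison (4 for the interaction), with a Benjamini-Hochberg FDR below 0.1 as a call. SE is the log2 fold change over the root of F. DESeq2 1.42.0 gave the alternative. The procedure was tested on simulated data. CPM used TMM factors over a region's libraries, class levels log2(CPM + 0.5) and correlations log2 CPM with a prior count of 2, over genes of at least 1 CPM where other genes were compared. Like-level genes lay within 0.5 log2 CPM. Tables were handled with pandas 2.3.3, numpy 2.4.6 and scipy 1.17.1, and plots drawn with matplotlib 3.10.9.

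The members and lists were chosen with earlier results of these data known. Library values are given for members called in any test and, per contrast and class, for the member of largest change with at least 10 counts on average and no overlap, and for others chosen after their values were seen. Lists were other endothelial, mural and fibroblast genes, choroid plexus, border macrophage, erythrocyte and cortical (pallial) excitatory neuron genes, and striatal neuron genes (chosen after seeing the data). Alternatives were DESeq2, its size factors, other low-count filters, all 4 groups in 1 fit, the replicate block, members without overlap on the other strand, and each library left out. Replicate numbers name different mice within a region's 2 groups. P-values measure the spread between these mice. The number of counts limits the precision, and overstates it where both reads of a pair counted. Without molecular identifiers 2 reads can also stem from 1 molecule. DS chronic saline replicate 2 had no counts on 5 chromosomes, and 15 chromosomes were complete in it.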

Additional observations from a re-analysis of the deposited data

Results flagged for a closer look

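Of 68 checks of members in the 2 groups of 4 libraries, 5 found a library apart from the rest by Dixon's test, where chance flags about 1 in 20 groups. In acute ethanol dHPC, Col1a1 was highest in replicate 2, at 7.91 CPM beside 4.63 to 5.03 in the other 3 libraries. Ogn was highest in the same library, at 6.11 CPM beside 2.80 to 3.10. Aebp1 was lowest in replicate 3, at 11.5 CPM beside 19.1 to 19.6. In chronic ethanol DS, Col3a1 was highest in replicate 5, at 1.84 CPM beside 0.874 to 1.01, and Bgn in replicate 1, at 9.61 CPM beside 7.61 to 7.93. All 5 are fibroblast genes.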

How the results depend on the processing

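Counts of members called changed as follows. With all 4 groups of a region in 1 fit, 0 members were called in CTX acute and 0 in DS acute, beside 0 and 283 of all genes. DESeq2 called 1 member in dHPC acute, 2 in dHPC chronic, 2 in VS chronic and 1 in the dHPC interaction. With no low-count filter edgeR called 2 in dHPC acute, 4 in vHPC chronic, 1 in DS chronic and 3 in VS chronic. Beside these it called 253 of 37834, 790 of 29649, 475 of 29674 and 569 of 30319 genes. Leaving out 1 library at a time gave 4 to 15 members in CTX acute, 0 to 2 in DS acute, and 0 to 1 in VS chronic, in vHPC chronic and in the vHPC interaction. Over all genes the same fits called 42 to 794, 581 to 1088, 0 to 615, 0 to 360 and 0 to 434.

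Leaving out 1 library, fibroblast medians ran from -0.62 to -0.53 in CTX acute, -0.90 to -0.0018 in vHPC acute, -0.83 to -0.27 in CTX chronic and -0.30 to 0.10 in VS chronic. Mural medians ran from -0.34 to -0.21 in CTX acute, -0.32 to -0.11 in vHPC acute and -0.52 to -0.40 in vHPC chronic. Endothelial medians ran from -0.053 to 0.23 in DS chronic and -0.18 to -0.094 in VS chronic. Without members overlapping a gene on the other strand, the fibroblast median in CTX acute was -0.51.

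The replicate block could be fitted in 3 comparisons. It gave 14 members in CTX acute, 0 in dHPC acute and 0 in CTX chronic, beside 789, 15 and 143 of all genes. It moved the endothelial median of CTX chronic to 0.080. Same-numbered libraries had correlations of -0.18 to 0.25 in their deviations, so the numbers did not pair them.

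By region or centring, endothelial with mural r was 0.71 centred on region means, 0.84 in dHPC and 0.077 in VS. The value centred on region means also holds the CTX acute difference, so nothing is read from it. Endothelial with fibroblast r was 0.50 in CTX, -0.18 in vHPC and 0.45 in VS, and mural with fibroblast r 0.68 in CTX and 0.59 in DS. The median SD of fibroblast genes was 0.43 in CTX, 0.36 in dHPC and 0.82 in vHPC. The cause of these differences was not tested.

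No value changed sign past its test's threshold. The smallest change that groups of 2 to 4 libraries can show was not determined.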
